A study of Rattus norvegicus with 9 samples.

Results

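Described here are 9 genes that mark macrophages and the wider myeloid lineage (Lyz2, Cd68, Cd163, Mrc1, Ptprc, Aif1, Spi1, Tyrobp and Fcer1g), taken by name from a table of 17337 genes; all 9 of 9 named genes were found. They were followed across 9 libraries of cultured rat cardiac fibroblasts at 3 ages. All animals were Sprague Dawley rats. Fetal cells came from embryos at day 18 (E18), neonatal cells from pups 1 day after birth (P1) and adult cells from rats aged 7 weeks, with 3 libraries for each age. At all ages the cells were unpassaged primary cells, grown to confluence in flasks of DMEM with serum and ascorbic acid, and no genetic change or drug is listed. The labels give no sorting step and do not say how many animals went into a flask. Nor do they say whether the 3 libraries of an age are separate isolations, so the p-values below measure the spread between these samples, which may be partly technical.

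Macrophages are phagocytes of the blood-forming lineage, and the heart holds a resident population of them among its fibroblasts, muscle cells and vessels. Their identity rests on the transcription factor PU.1, encoded by Spi1, and on receptors that signal through small membrane adaptors. Tyrobp (DAP12) and Fcer1g (the common gamma chain of Fc receptors) are such adaptors, and each carries an immunoreceptor tyrosine-based activation motif (ITAM) that recruits the kinase Syk when a paired receptor is engaged. Ptprc encodes CD45, the phosphatase found on nucleated blood cells in general, so it marks leukocytes rather than macrophages alone. Lyz2 (lysozyme) and Cd68 (a glycoprotein of late endosomes and lysosomes) belong to the digestive machinery. Mrc1 (the mannose receptor) and Cd163 (the receptor for haemoglobin bound to haptoglobin) are endocytic receptors used to mark resident macrophages. Aif1 (IBA1) binds calcium and bundles actin.

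Because Spi1 was itself among the 9 genes and its product binds purine-rich sites, the RefSeq promoter windows (GRCr8, 250 bases before to 50 bases after a gene's start) were searched for the PU box GAGGAA on both strands. Entries were found for 5 of the 9 genes, Lyz2, Cd68, Cd163, Mrc1 and Ptprc, and not for Aif1, Spi1, Tyrobp and Fcer1g. The letters GAGGAA or the reverse complement TTCCTC occurred in 4 of those 5 windows, all but Cd163, and in 27.6% of all 33469 promoter windows. The longer form GAGGAAGT, which contains the PU box, occurred in 0 of 5 windows and in 2.42% of all. The stretches below run 5′ to 3′ on the gene's strand with the PU box letters in capitals. They are shown to compare the windows that hold those letters with that of Cd163, which does not. Whether these letters bear on the level of any gene was not tested. A match is a description of letters and not a measured binding site.
Lyz2, chr7:54798040-54798069, minus strand: ctgtcaggaaagGAGGAActtggaggatgc
Cd68, chr10:54882442-54882541, minus strand: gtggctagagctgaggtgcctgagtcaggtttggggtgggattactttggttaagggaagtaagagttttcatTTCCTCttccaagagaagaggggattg
Mrc1, chr17:82157625-82157724, plus strand: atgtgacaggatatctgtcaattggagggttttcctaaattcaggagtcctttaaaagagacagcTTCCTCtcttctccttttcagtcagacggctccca
Ptprc, chr13:52259811-52259910, minus strand: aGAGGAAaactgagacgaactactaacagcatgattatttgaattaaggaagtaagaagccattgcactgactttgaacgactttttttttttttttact
Cd163, chr4:158770651-158770750, plus strand: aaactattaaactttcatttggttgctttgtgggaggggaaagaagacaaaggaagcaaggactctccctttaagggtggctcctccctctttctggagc
Counted from the start used for each window, the capitals begin 46 bases before the start of Lyz2, 27 before that of Cd68, 35 before that of Mrc1 and 163 before that of Ptprc. A further TTCCTC lay 180 bases before the start of Mrc1 and a GAGGAA lay 4 bases past that of Cd68, both outside the stretches shown. The outermost start that RefSeq annotates lies 49 bases further upstream for Lyz2, 64 for Ptprc and 23 for Cd163, so that the match at Lyz2 lies inside the annotated gene.

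The libraries held 13392825 to 22850491 assigned counts, and the adult libraries were the shallowest. Fetal replicate 3 stood apart from its age. Over genes, its counts differed from those of fetal replicates 1 and 2 with a chi-square per degree of freedom of 90.0 and 97.3, against 3.94 between replicates 1 and 2. Fetal values of the 9 genes are therefore given by library. Adult replicate 1 also stood apart, at 25.8 and 43.0 against adult replicates 2 and 3, which differed by 6.76, and without it the same 9 of 9 genes were called in both adult comparisons. Collagen transcripts of fibroblasts were abundant at every age, with Col1a1 between 11890 and 40025 CPM (counts scaled to a common library size, here with TMM, a factor that offsets differences in RNA composition). Of the 10 fibroblast markers listed, Col1a2 alone was low at every age, at 0.0531 to 0.976 CPM over the 9 libraries. The reason was not tested. Reads for the 9 macrophage and myeloid genes made up 0.326% to 0.464% of the counts in adult libraries, 0.00956% to 0.0108% in neonatal and 0.000397% to 0.00445% in fetal libraries.

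All 9 genes were higher in adult than in fetal and in neonatal cultures, and between fetal and neonatal cultures 5 of the 9 rose. In these bulk samples more macrophages and more RNA per macrophage cannot be told apart. All 9 genes passed the filter on low counts. Lyz2, Cd68 and Mrc1 reached it at each age, Ptprc, Aif1, Spi1, Tyrobp and Fcer1g in neonatal and adult libraries, and Cd163 in adult libraries alone, so that Cd163 could enter the test only by being higher there. The 3 comparisons share libraries, and their values are therefore set side by side and not as independent results.

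Spi1 (chromosome 3, 79919011 to 79937706, rn6) was at 0.324, 0.0441 and 1.28 CPM in fetal replicates 1, 2 and 3, at 2.31, 1.72 and 2.52 CPM in the neonatal and at 97.6, 117 and 110.3 CPM in the adult replicates. No 2 ages overlapped. The adult mean was 198 times the fetal mean (log2 fold change 7.68, SE 0.459, edgeR adjusted p = 1.03e-06) and 49.6 times the neonatal mean (log2 5.65, SE 0.387, adjusted p = 3.98e-06). Against fetal replicates 1 and 2 alone the adult mean was 589 times higher. The neonatal mean was 3.99 times the fetal mean (log2 2.03, SE 0.586, adjusted p = 0.0264).

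Ptprc (chromosome 13, 55061561 to 55173692) was at 0, 0.0882 and 2.76 CPM in the fetal replicates, which stand for 0, 2 and 52 counts. The neonatal replicates lay at 7.38, 6.41 and 8.16 CPM and the adult replicates at 134, 141 and 152 CPM. No 2 ages overlapped here either, and among the fetal libraries only replicate 3 exceeded the floor of 3 counts. Adult cultures were 150-fold above fetal (log2 7.28, SE 0.693, edgeR adjusted p = 1.81e-05) and 19.4-fold above neonatal ones (log2 4.29, SE 0.551, adjusted p = 0.000162). Neonatal cultures were 7.70-fold above fetal ones (log2 2.99, SE 0.739, adjusted p = 0.0145). With fetal replicates 1 and 2 set at the floor of 3 counts, adult cultures were 966-fold higher.

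The adaptor Tyrobp (chromosome 1, 88875449 to 88879299) was at 0.162, 0.0882 and 3.61 CPM in fetal, 4.62, 4.65 and 5.70 in neonatal and 322, 370 and 426 CPM in adult replicates. It rose 74.7-fold from neonatal to adult cultures (log2 6.23, SE 0.629, edgeR adjusted p = 3.87e-05) and was 290-fold above fetal cultures (log2 8.23, SE 0.723, adjusted p = 1.08e-05). With fetal replicates 1 and 2, at 3 and 2 counts, set at the floor of 3 counts, it was 2533-fold higher in adult cultures. That ratio is not a lower limit, since those counts lay at or just under the floor. Fcer1g (chromosome 13, 89601894 to 89606326) was at 1.08, 0.485 and 6.06 CPM in fetal, 6.72, 5.67 and 6.08 in neonatal and 333, 390.3 and 449 CPM in adult replicates. It rose 63.5-fold from neonatal to adult cultures (log2 5.99, SE 0.585, adjusted p = 3.20e-05), and adult cultures were 154-fold above fetal ones (log2 7.30, SE 0.638, adjusted p = 1.04e-05). Without fetal replicate 3 that ratio was 499. For both adaptors fetal replicate 3 was close to the neonatal libraries: for Fcer1g it fell inside their range, and for Tyrobp it lay just below it. Neither adaptor passed the test between neonatal and fetal cultures, with a 3.87-fold ratio of means (adjusted p = 0.0708) for Tyrobp and a log2 difference of 1.31 (SE 0.635, adjusted p = 0.136) for Fcer1g.

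Lyz2 (chromosome 7, 60335968 to 60341264) had the highest CPM of the 9 in each adult and neonatal library. It was at 1.24, 0.882 and 12.4 CPM in fetal, 65.2, 59.9 and 59.2 in neonatal and 1731, 2129 and 2634 CPM in adult replicates. In the adult libraries it ranked 54th, 30th and 26th by CPM among all genes of the table. The adult mean was 446 times the fetal (log2 8.82, SE 0.919, edgeR adjusted p = 3.16e-05) and 35.2 times the neonatal mean (log2 5.14, SE 0.764, adjusted p = 0.000384). The neonatal mean was 12.7 times the fetal one (log2 3.68, SE 0.765, adjusted p = 0.00684). Against fetal replicates 1 and 2 alone the adult mean was 2038 times higher. Reads that match another lysozyme gene equally well are left out by the counting as stated in the headers, so the level of Lyz2 is uncertain to that extent. Cd68 (chromosome 10, 56268726 to 56270605), the other lysosomal gene, was at 0.702, 0.794 and 3.24 CPM in fetal, 7.43, 6.23 and 6.34 in neonatal and 342, 388 and 396 CPM in adult replicates. Its differences were 7.91 (SE 0.419, adjusted p = 5.00e-07) for adult against fetal, 5.81 (SE 0.364, adjusted p = 2.38e-06) for adult against neonatal and 2.10 (SE 0.425, adjusted p = 0.00608) for neonatal against fetal cultures on the log2 scale. Its adult mean was 238 times the fetal mean, or 502 times without fetal replicate 3. Neither gene overlapped between any 2 ages.

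The endocytic receptors were both higher in adult cultures but stood at different levels. Mrc1 (chromosome 17, 81352700 to 81433743) was at 1.62, 1.23 and 7.60 CPM in fetal, 17.6, 15.5 and 14.8 in neonatal and 294, 323 and 302 CPM in adult replicates, again without overlap. It differed by 6.48 (SE 0.541, edgeR adjusted p = 7.79e-06), 4.26 (SE 0.470, adjusted p = 6.49e-05) and 2.22 (SE 0.508, adjusted p = 0.0105) on the log2 scale for adult against fetal, adult against neonatal and neonatal against fetal cultures. The adult mean was 87.9 times the fetal mean, or 215 times without fetal replicate 3.

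Cd163 (chromosome 4, 156752093 to 156785467) had 0 counts in each of the 3 fetal and 3 neonatal libraries, which allows up to 0.132 to 0.194 CPM per library (3 counts of the library, counting error only). In the adult replicates it had 82, 39 and 30 counts, or 6.28, 2.82 and 2.25 CPM. Taken against the floor of 3 counts per library, adult cultures were at least 25.0-fold above fetal (edgeR adjusted p = 0.000745) and at least 22.7-fold above neonatal ones (adjusted p = 0.00102). Without adult replicate 1, which held the highest level, the bounds were 16.7-fold and 15.2-fold (adjusted p = 0.0012 and 0.0016). Per kilobase of exon, so that genes of different length can be compared, Mrc1 exceeded Cd163 by 37.8, 92.5 and 109 times in adult replicates 1, 2 and 3. At this depth a Cd163 level in younger cultures below those limits was not detectable.

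Aif1 (chromosome 20, 5161350 to 5163249) was at 0.108, 0.265 and 1.49 CPM in fetal, 2.59, 1.49 and 2.01 in neonatal and 115, 148 and 186 CPM in adult replicates. It was 241-fold higher in adult than in fetal (log2 7.94, SE 0.496, edgeR adjusted p = 1.37e-06) and 73.8-fold higher than in neonatal cultures (log2 6.21, SE 0.432, adjusted p = 4.35e-06). Without fetal replicate 3 the first of these ratios was 803. Fetal replicate 3 and neonatal replicate 2 were nearly equal, and the difference between those ages, 1.72 on the log2 scale (SE 0.644, adjusted p = 0.0657), did not pass.

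**Figure D1:**
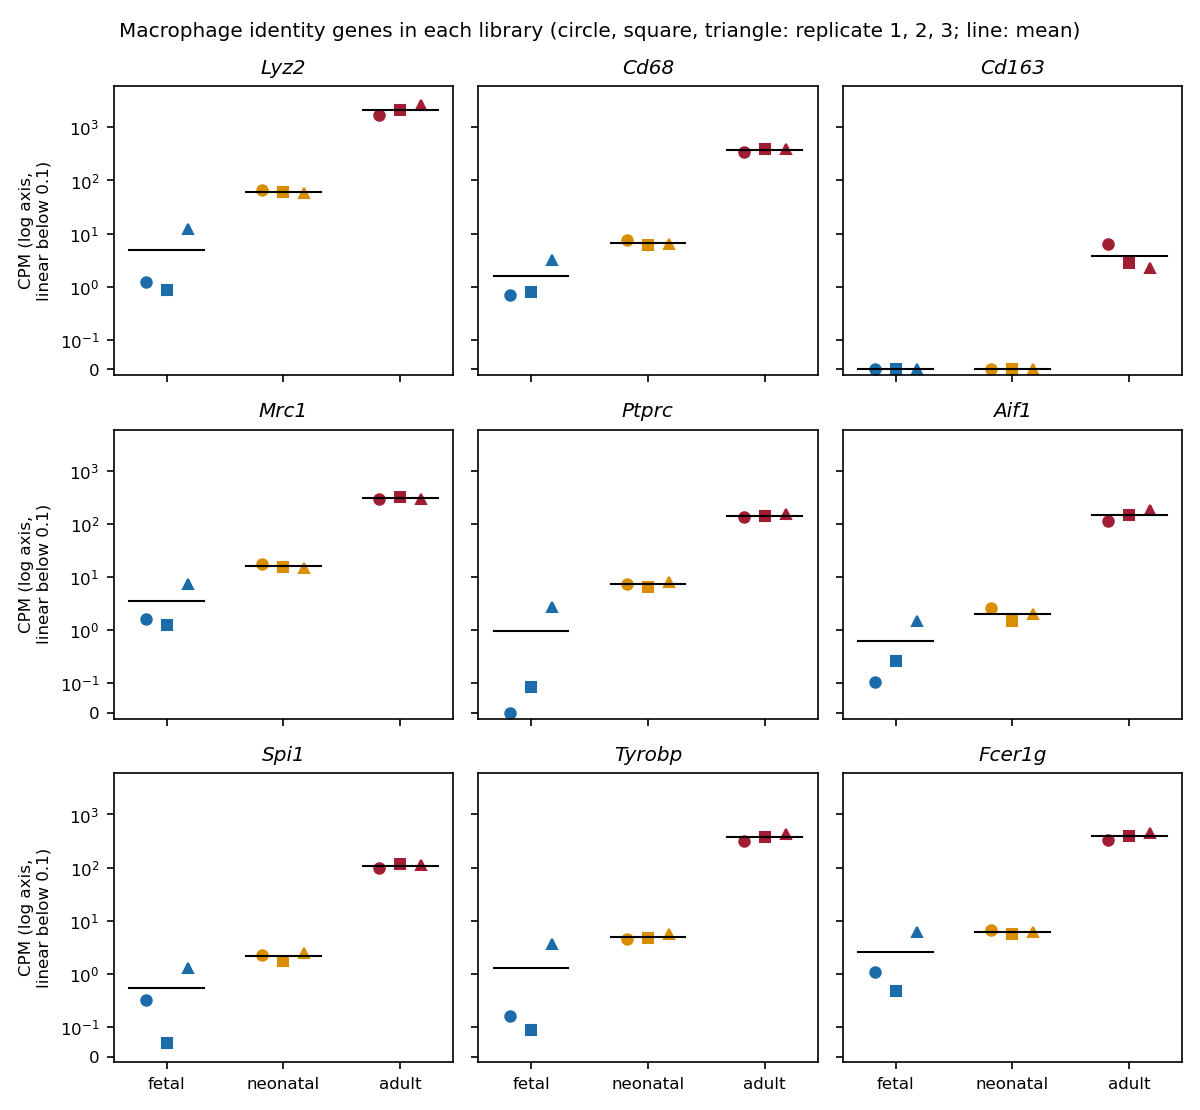
Abundance of the 9 genes in each library, in TMM-scaled CPM on a log axis that is linear below 0.1, by age (symbols give the replicate, lines the mean of 3 libraries). Adult libraries lie above all others in each panel, fetal replicate 3 lies above fetal replicates 1 and 2 wherever counts were found, and Cd163 was at 0 in all 6 younger libraries.

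Set against all genes, the count of 9 of 9 called higher in adult than in fetal cultures compares with 34.9% of the 11337 genes tested, where 35.5% were lower and 70.5% changed in either direction. Against neonatal cultures the same count compares with 31.6% higher, 31.8% lower and 63.5% in either direction. Every adult library exceeded every fetal library for 9 of 9 genes, against 35.9% of all tested, and every neonatal library for 9 of 9, against 37.6%. Between neonatal and fetal cultures 5 of 9 were called higher and 0 lower, against 18.3% of all genes called higher, 18.0% lower and 36.3% in either direction. For 6 of 9 every neonatal library was above every fetal library, against 29.2% of all. The median log2 difference over the 9 genes, with Cd163 at its fitted value, was 7.91 for adult against fetal, 5.81 for adult against neonatal and 2.03 for neonatal against fetal cultures. With Cd163 at its bound the medians of the adult comparisons were 7.68 and 5.65. Over all tested genes the median was -0.01 in each. With library size alone as the scaling, 29.0% of all calls between neonatal and fetal cultures were higher in neonatal ones, against 50.4% with TMM, and the median of all genes was -0.18. Of the 9 genes, 5 were called there too. Without any filter on low counts, 9, 9 and 5 of the 9 were called in the 3 comparisons.

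Fetal replicate 3 set the size of the neonatal difference. It held the highest fetal level of all 8 genes with fetal counts. For the 6 genes whose mean over fetal replicates 1 and 2 lay above the floor (Aif1 with 2 counts in the former and Spi1 with 1 in the latter), it was at 4.33 (Cd68) to 11.7 (Lyz2) times their mean. With replicates 1 and 2 set at the floor of 3 counts, it was at 18.8 times for Ptprc and 24.6 times for Tyrobp, both at or below that floor there. Against fetal replicates 1 and 2 alone, the neonatal mean was 57.8 times higher for Lyz2, 11.9 for Spi1, 11.2 for Mrc1, 10.9 for Aif1, 8.91 for Cd68 and 7.87 for Fcer1g. With those replicates set at the floor of 3 counts, it was 49.7 times higher for Ptprc and 33.9 for Tyrobp. Against fetal replicate 3 alone it was 4.94 times for Lyz2, 2.65 for Ptprc, 2.10 for Mrc1, 2.06 for Cd68, 1.71 for Spi1, 1.38 for Tyrobp, 1.36 for Aif1 and 1.02 for Fcer1g. In a fit without fetal replicate 3, all 8 genes other than Cd163 were called higher in neonatal cultures, Aif1 with edgeR adjusted p = 0.0117, Fcer1g with 0.000172 and Tyrobp with 5.26e-06. In the other direction, Spi1 lost its neonatal call without fetal replicate 1 (adjusted p = 0.0713) and without neonatal replicate 1, 2 or 3 (0.0745, 0.0529 and 0.0776). Fetal replicate 3 also held the lowest fetal sum of fibroblast markers, 23654 CPM against up to 50437 CPM in the other fetal libraries. Most of that sum was Col1a1 (14800 CPM) and Col3a1 (7294 CPM). Pdgfra (151 CPM against 106 and 109 in replicates 1 and 2) and Postn (1104 against 891 and 927 CPM) were highest in replicate 3, and the remaining fibroblast markers were lowest there. The same library held the highest fetal sum of receptors that pair with the 2 adaptors, 7.97 CPM against 0.882 CPM in the lowest. The part of either sum in the neonatal difference was not tested.

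**Figure D2:**
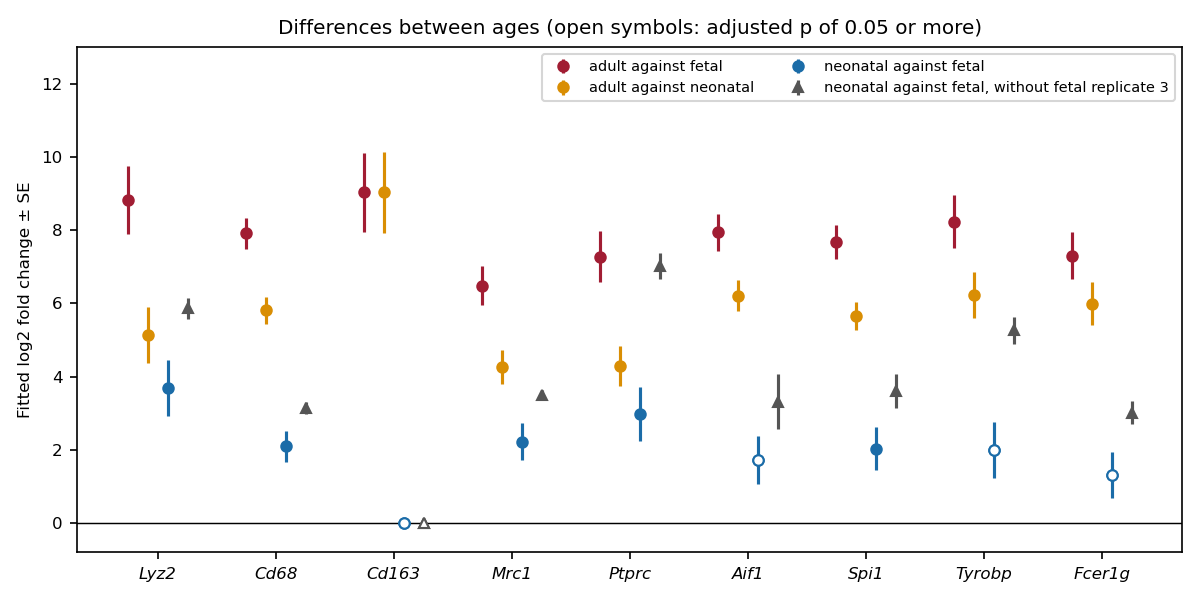
Fitted log2 fold change with its standard error for each gene in the 3 comparisons of ages, and for neonatal against fetal cultures without fetal replicate 3. Tyrobp, Aif1 and Fcer1g pass the threshold between neonatal and fetal cultures only when fetal replicate 3 is left out, and fitted values for Cd163, and for Ptprc and Tyrobp without that library, depend on a group at or near 0 counts and are no bounds.

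The order of levels was compared per kilobase of exon, as CPM per kilobase. In adult cultures it ran Lyz2 (1817 ± 380.3, mean ± SD, n = 3), Tyrobp (710.1 ± 99.5), Fcer1g (617 ± 91.4), Cd68 (313 ± 24.5), Aif1 (228 ± 53.6), Spi1 (80.8 ± 7.48), Mrc1 (58.6 ± 2.87), Ptprc (28.2 ± 1.87) and Cd163 (0.895 ± 0.516). Only the neighbours Tyrobp and Fcer1g overlapped between libraries. In neonatal cultures Lyz2 was again first (51.6 ± 2.73 CPM per kilobase), followed by Fcer1g (9.73 ± 0.832) and Tyrobp (9.50 ± 1.17), which overlapped, then Cd68 (5.56 ± 0.553), Aif1 (3.09 ± 0.837) and Mrc1 (3.04 ± 0.278), which overlapped, and Spi1 (1.63 ± 0.311) and Ptprc (1.45 ± 0.173), which did as well. In fetal cultures each neighbour in the order overlapped with the next, from Lyz2 at 0.740 to 10.4 CPM per kilobase down to Cd163 at 0.

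The proportions among the 9 genes were compared between neonatal and adult cultures by taking each gene's log2 CPM relative to the mean of the other 8 in the same library. Relative to the others, Mrc1 went from 2.04 ± 0.145 (n = 3) in neonatal to 0.80 ± 0.0971 in adult libraries, and Ptprc from 0.78 ± 0.121 to -0.45 ± 0.0270. Tyrobp went from 0.17 ± 0.204 to 1.11 ± 0.146, Aif1 from -1.26 ± 0.291 to -0.39 ± 0.304, Fcer1g from 0.51 ± 0.0511 to 1.18 ± 0.160 and Cd68 from 0.64 ± 0.103 to 1.13 ± 0.0656. No adult library overlapped a neonatal one for any of these 6 genes, which gives an exact two-sided permutation p of 0.10, the smallest that 3 against 3 allows, and 0.193 after Benjamini-Hochberg adjustment over 27 such exact tests, so none passed. Lyz2 (difference -0.27, exact p = 0.30) and Spi1 (0.24, exact p = 0.30) overlapped. With Cd163 left out of the reference because of its zeros, the differences were -1.32 for Mrc1, -1.31 for Ptprc, 0.89 for Tyrobp, 0.82 for Aif1, 0.62 for Fcer1g and 0.44 for Cd68. Lyz2 then no longer overlapped (-0.34, exact p = 0.10, adjusted 0.16 over 24 tests). In linear terms Mrc1 and Ptprc were 19.2 and 19.4 times higher in adult than in neonatal cultures, and Tyrobp and Aif1 74.7 and 73.8 times.

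**Figure D3:**
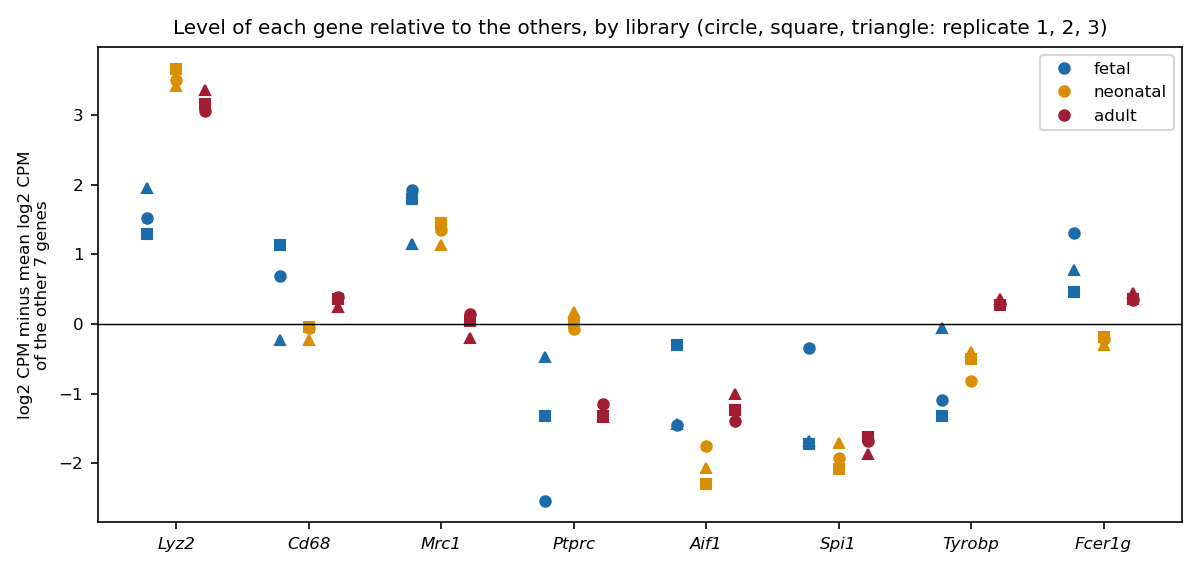
Log2 CPM of 8 genes (all but Cd163) minus the mean log2 CPM of the other 7 in the same library, by age. Relative to the rest, Mrc1 and Ptprc are lower in each adult than in each neonatal library, as is Lyz2 by less, and Cd68, Aif1, Tyrobp and Fcer1g are higher.

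Within the adult age, replicate 1 held the lowest level of 8 of the 9 genes and the highest level of the ninth, Cd163, at 2.48 times the mean of adult replicates 2 and 3. Replicate 3 was highest for 6 genes and replicate 2 for Mrc1 and Spi1. Lyz2 varied most among the 8 after Aif1, with a coefficient of variation of 20.9% and 23.5%, and Mrc1 least at 4.90%, while Cd163 reached 57.7%. Over the 9 libraries the deviations of log2 CPM from the age means correlated between genes at a median r of 0.954 for the 28 pairs without Cd163, and at -0.0915 for the 8 pairs with it. These libraries share depth and fetal replicate 3, and in the 6 neonatal and adult libraries the medians were 0.615 and -0.643. Cd163 had 0 counts in every fetal and neonatal library and so did not deviate from its age mean there. Both medians for the pairs with Cd163 therefore rest on the adult libraries alone and restate the order of adult replicates given above. The fibroblast markers Pdgfra (669, 384 and 245 CPM in adult replicates 1, 2 and 3) and Dcn (471, 359 and 230 CPM) had their highest adult level in the same replicate as Cd163. The 10 fibroblast markers did not share that order: adult replicate 1 held the highest adult level of 5 of them and the lowest of the other 5, among those Col1a1 (11890, 15691 and 17313 CPM) and Postn (375, 873 and 998 CPM). Their part in the variation of Cd163 was not tested.

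The wider myeloid program was read from 6 lists, in which the named genes are among the 3 most abundant unless said otherwise. Over all genes tested, 31.6% were called higher in adult than in neonatal, 34.9% in adult than in fetal and 18.3% in neonatal than in fetal cultures. Called lower were 31.8%, 35.5% and 18.0%. Of 14 receptors that pair with Tyrobp or Fcer1g, 13 were in the table, among them Pira2 by a symbol match that is not certain. Of these, 11 were tested, and all 11 were called higher in adult than in neonatal cultures. Their median log2 difference was 5.47, against -0.01 over all genes tested. It was 4.87 with the 2 at or under the floor in each neonatal library taken against that floor. Of the 11, 6 (Trem3, Clec4d, Clec4e, Cd300lb, Pira2 and Fcgr3a) reached the filter on low counts in adult libraries alone and so could be tested only by being higher there. The same held for 1 of the 11 kinases and linkers tested (Hcst), 3 of 15 surface receptors (Fcgr3a, Siglec1 and Cd86), 1 of 10 transcription factors (Ikzf1), 1 of 9 pan-leukocyte genes (Cd37) and 0 of 12 oxidase and lysosome genes, and the counts below include them. The 3 most abundant were Trem2, a lipid-sensing receptor that uses Tyrobp (2.64 ± 0.600 CPM in neonatal and 233 ± 14.6 in adult cultures, n = 3, edgeR adjusted p = 3.85e-06), Fcgr1a, the high-affinity IgG receptor that uses Fcer1g (4.42 ± 0.384 to 131 ± 12.999, adjusted p = 4.93e-05), and the fungal glucan receptor Clec7a, which was placed in this list but carries a signalling motif of its own (2.94 ± 0.645 to 71.0 ± 2.85, adjusted p = 1.36e-07). From fetal to neonatal cultures 5 of the 11 were called higher and 0 lower, against 18.3% and 18.0% of all genes tested. Downstream of the adaptors, 11 of 12 kinases and linkers were in the table, and 11 of 11 were called higher in adult than in neonatal cultures. Their median was 4.94, or 4.71 with the 1 at or under the floor in each neonatal library taken against that floor. Among them the Src-family kinase Fgr went from 2.19 ± 0.134 to 106 ± 5.34 CPM (edgeR adjusted p = 3.94e-05), while Lyn, which other cells also use, went from 33.3 ± 1.01 to 183 ± 14.4 CPM (adjusted p = 8.65e-08). From fetal to neonatal cultures 5 of these 11 were called higher (18.3% of all genes tested), or 9 of them without fetal replicate 3.

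Of 18 surface receptors of macrophages and monocytes 16 were in the table and 15 tested, 14 of them called higher in adult than in neonatal cultures and 0 lower (median 4.57). The lipopolysaccharide co-receptor Cd14 rose from 23.9 ± 1.59 to 569 ± 67.5 CPM (edgeR adjusted p = 1.45e-06), Csf1r, the receptor for macrophage colony-stimulating factor, from 28.3 ± 1.40 to 510.2 ± 123 CPM (adjusted p = 0.000446) and the inhibitory IgG receptor Fcgr2b from 7.72 ± 0.236 to 313 ± 34.0 CPM (adjusted p = 1.59e-06). The exception was the fractalkine receptor Cx3cr1 (log2 difference 2.01, adjusted p = 0.0502). From fetal to neonatal cultures 8 of the 15 were called higher and Lyve1, a hyaluronan receptor, lower (log2 difference -2.15, adjusted p = 0.00764). Over all genes tested, 18.3% were called higher and 18.0% lower between those ages. Fcgr1a and Fcgr3a stand in both receptor lists. All 10 myeloid transcription factors were called higher in adult than in neonatal cultures, at a median of 2.496. Cebpb rose from 13.02 ± 1.25 to 148 ± 63.9 CPM (adjusted p = 1.33e-05) and Irf5 from 11.4 ± 1.04 to 78.1 ± 6.55 CPM (adjusted p = 1.98e-07), and Runx1, which was at 39.9 ± 1.24 CPM already in neonatal cultures, reached 50.8 ± 0.903 CPM (adjusted p = 0.00224). Cebpb was at 220, 123 and 100 CPM in adult replicates 1, 2 and 3. It was thus highest in replicate 1, where Irf5, Runx1 and 8 of the 9 genes were lowest. From fetal to neonatal cultures Irf5 and Fli1 were called higher and Runx1 and Maf lower (log2 difference -0.24 and -0.93). These 2 of 10 in each direction lie near the 18.3% called higher and 18.0% lower over all genes tested. Without fetal replicate 3, 4 factors were called higher and 2 lower. Fli1 and Maf, like the single exceptions named for other lists, were chosen after their values were seen.

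Of the 12 genes of the phagocyte oxidase and lysosome 11 were called higher in adult than in neonatal cultures and 0 lower (median 3.39), the exception being Lamp2 (edgeR adjusted p = 0.201). Its most abundant members are lysosomal genes that fibroblasts also express: the proteases Ctsd (800 ± 13.7 to 5190.4 ± 62.6 CPM, edgeR adjusted p = 4.54e-07) and Ctsb (778 ± 0.622 to 4322 ± 113, adjusted p = 1.77e-08), and the membrane protein Lamp1 (893 ± 7.75 to 1395 ± 78.9, adjusted p = 0.000218). Among 10 pan-leukocyte genes besides Ptprc, 9 were tested and 9 called higher in adult than in neonatal cultures (median 4.99). The actin bundler Lcp1 went from 36.1 ± 2.82 to 893 ± 114 CPM (adjusted p = 8.71e-05), the leukocyte integrin chain Itgb2 from 12.8 ± 0.949 to 650 ± 74.1 CPM (adjusted p = 1.88e-05), and Cd48 from 109 ± 2.21 to 155 ± 4.39 CPM (adjusted p = 0.0132). Cd48 was at 64.3, 65.3 and 41.0 CPM in fetal replicates 1, 2 and 3. It was thus lowest in fetal replicate 3, where Lcp1, Itgb2 and the 8 genes with fetal counts were highest. In adult against fetal cultures all tested paired receptors (11), kinases and linkers (11), surface receptors (15), oxidase and lysosome genes (12) and pan-leukocyte genes (9) were called higher. Of the transcription factors 9 of 10 were, the exception being Runx1 (adjusted p = 0.205).

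Genes outside the 9 were ranked by likeness to them among 8936 genes that reached a mean of at least 10 CPM at any age. Likeness was the root mean square distance, over the 9 libraries, between a gene's centred log2 CPM and the mean centred log2 CPM of the 9. The 5 nearest were Rgs1, a regulator of G-protein signalling (distance 0.193 on the log2 scale), Nckap1l, a blood-cell subunit of the WAVE complex (0.203), Trem1, a receptor that uses Tyrobp (0.224), the leukocyte tetraspanin Cd53 (0.245) and the myosin Myo1g (0.291). Trem1 and Cd53 were also in the lists above. Cd68, the closest of the 9 to the mean of the other 8, had a distance of 0.308, and Cd163, the farthest, 1.74. Rgs1 stood at 0.697 ± 0.915 CPM in fetal, 3.05 ± 0.134 in neonatal and 111 ± 23.1 in adult cultures (n = 3), and Nckap1l at 1.24 ± 1.46, 5.15 ± 0.596 and 168 ± 16.4 CPM.

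Markers of other blood cells, some of which also use Ptprc, Tyrobp or Fcer1g, were summed in each library. The 4 B-cell markers of the table summed to at most 0.153 CPM in an adult library, with Ms4a1 and Cd79b at 0 counts in all 3. The 5 natural killer cell markers summed to 0.449 to 1.81 CPM in adult and at most 0.0550 CPM in younger libraries. The 7 neutrophil markers summed to 2.02 to 2.96 CPM in adult and at most 0.372 CPM in younger libraries, with S100a9 and Mpo at 0. Csf3r, the only neutrophil marker tested, was higher in adult than in neonatal cultures (1.39 against 0.105 CPM, edgeR adjusted p = 0.00332). The 7 mast cell markers summed to 2.995 to 6.66 CPM in adult and 5.76 to 14.2 CPM in younger libraries. Of these, Cpa3, Tpsab1, Ms4a2, Fcer1a (the ligand-binding partner of Fcer1g on mast cells) and Cma1 had 0 counts in all 9 libraries. Kit, which other cells also use, was at 1.95 to 13.02 CPM, and Hdc, the histamine-forming enzyme, was higher in adult than in neonatal cultures (3.52, 0.867 and 1.05 CPM in adult replicates, edgeR adjusted p = 0.0348). Against fetal cultures Hdc was not called (edgeR adjusted p = 0.0905), and fetal replicate 3, at 1.22 CPM, lay above adult replicates 2 and 3. The 6 T-cell markers summed to 16.999 to 23.95 CPM in adult against 0.744 to 2.13 CPM in the younger libraries, with the CD3 chain gene Cd3d at 0 throughout and Cd3e at 0 in all but adult replicate 1 (0.0765 CPM). The 6 dendritic cell markers summed to 8.99 to 12.6 CPM in adult and 7.12 to 14.6 CPM in younger libraries. Most of that sum was Zbtb46, which was lower in adult than in neonatal cultures (6.82 against 12.8 CPM, edgeR adjusted p = 0.00231). Ccr7 was higher (2.87 against 0.0155 CPM, adjusted p = 0.000427). Markers of cardiomyocytes moved opposite to the 9 genes. Over 10 genes they summed to 304 to 318 CPM in adult, 6082 to 6726 in neonatal and 9346 to 13262 CPM in fetal libraries. Nearly all of the adult sum was Tnnt2 (303, 310 and 316 CPM in replicates 1, 2 and 3). No other of the 10 exceeded 0.795 CPM there. The sum of 10 fibroblast markers, mostly Col1a1 and Col3a1, was 22236 to 29822, 67927 to 74193 and 23654 to 50437 CPM in the same order of ages. Of these 10, 2 were called higher and 5 lower in adult than in neonatal cultures (31.6% and 31.8% of all genes tested). Against fetal cultures 4 were higher and 3 lower (34.9% and 35.5%). The part of these shifts in the values of the 9 genes was not tested.

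**Figure D4:**
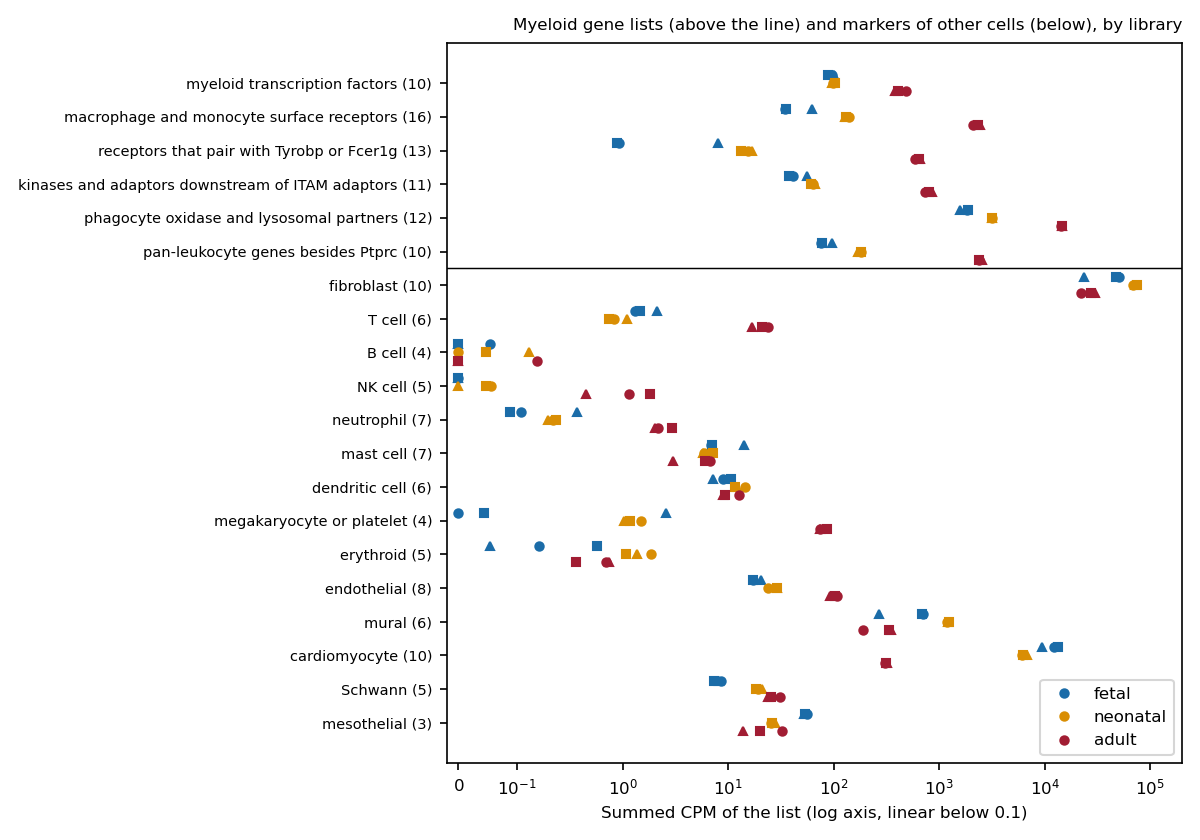
Summed TMM-scaled CPM of 6 myeloid gene lists and of marker lists for other cells in each library, on a log axis that is linear below 0.1 (the number of genes found in the table is in brackets). The myeloid lists are highest in the 3 adult libraries, whereas cardiomyocyte markers are lowest there. The T-cell, natural killer cell, neutrophil, megakaryocyte or platelet, endothelial and Schwann lists are also highest in adult libraries. Natural killer cell markers reach at most 1.81 CPM and B-cell markers at most 0.153 CPM.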

How the data were processed

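Deposited were raw counts of reads per gene for 9 libraries, produced by featureCounts 1.6.3 on an rn6 annotation with neither a strand nor a multi-mapping option, per the file headers. Per the submitters' processing notes, Trimmomatic 0.39 and STAR 2.5.2b were also used. Exons of the 9 genes shared no bases with another gene. A deposited table of normalized signal, counts divided by the authors' size factors, was used only to check those factors.

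Genes were filtered with filterByExpr (11337 kept), scaled by TMM and tested with edgeR 4.0.16 (R 4.3.3), robust quasi-likelihood, age as the only term, all 9 libraries, Benjamini-Hochberg over all genes, threshold 0.05. Log2 CPM used a prior count of 2. The fit was checked on simulated counts. No 2 libraries of an age agreed within counting error. Replicate numbers did not pair libraries. CPM intervals and floors cover counting error only.

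The 9 genes, lists and tests were chosen with earlier results of these data known. Named were the 9 genes, the 3 most abundant genes of each list over all libraries (some are not reported here), and the 5 genes nearest in profile. The list gene Pira2 was matched to the symbol Lilrb3l through a RefSeq synonym, and that match is not certain. The ITAM search in proteins was not run. Alternatives included DESeq2 1.42.0, other scalings and filters, a replicate block and leaving out each library.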

Additional observations from a re-analysis of the deposited data

How the results depend on the processing

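The 9 genes called in both adult comparisons numbered 9 under all alternatives run but one: a minimum mean of 10 CPM at 1 age removed Cd163 and left 8. Between neonatal and fetal cultures the count of 5 became 3 when only the 6 libraries compared entered the fit (Ptprc and Spi1 were lost, adjusted p = 0.0724 and 0.0892) and 4 with DESeq2 (Ptprc, 0.0776); leaving out 1 library gave 4 to 8, with 8 without fetal replicate 3. With a replicate block the counts were 9, 9 and 5, so it changed no call; over 9 same-numbered pairs no correlation of deviations exceeded 0.1, and 4 of 9 libraries correlated best with their own number. Each of 143 alternative log2 fold changes of the 9 genes in either adult comparison kept its side and sign. Between neonatal and fetal cultures 132 did, 7 lost a call (Ptprc or Spi1) and 3 gained one (Aif1, Tyrobp and Fcer1g without fetal replicate 3). Counts over all genes for that comparison fell from 4114 to 2607, 2476 or 2575 without neonatal replicate 1, 2 or 3, and to 1272 with a minimum log2 change of 1, which also left 3675 and 2838 of the 7987 and 7197 genes in the adult comparisons. The level of Cd163 relative to the other 8, adult against neonatal, was -0.48 with a prior count of 2 and 1.46 with 0.5, chosen after seeing the data, and is not used. Depth limits levels below 3 counts, which correspond to 0.132 to 0.162 CPM in fetal, 0.139 to 0.194 in neonatal and 0.217 to 0.230 CPM in adult libraries. Without fetal replicate 3 the pan-leukocyte genes called higher in neonatal than in fetal cultures rose from 5 to 9 of 9, an alternative added after seeing the data.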

Other observations

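In the T-cell and the megakaryocyte or platelet marker lists, genes rose in adult cultures while defining genes of that cell type stayed near 0. These genes were chosen after their values were seen. Among 6 T-cell markers, Cd8a, a co-receptor chain, was at 16.9, 14.5 and 11.8 CPM in adult replicates 1, 2 and 3 and at most 0.324 CPM in the younger libraries (edgeR adjusted p = 5.55e-06 against neonatal). The kinase Lck was at 6.96, 6.14 and 5.24 CPM in adult and at most 1.28 CPM in younger libraries (adjusted p = 1.03e-05), while Cd3d, Cd3e and Cd3g were each at most 0.159 CPM in any library. Pf4, a platelet chemokine, was at 73.7, 86.4 and 74.7 CPM in adult and at 0 to 2.55 CPM in younger libraries (adjusted p = 8.62e-05), while Gp1bb and Ppbp had 0 counts in all libraries and Gp9 was at most 0.110 CPM.

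Of 8 endothelial markers 7 were tested, and 5 were called higher and 2 lower in adult than in neonatal cultures. Over all genes tested, 31.6% were called higher and 31.8% lower. Tie1, a receptor kinase, rose most, from 1.80 ± 0.292 CPM (n = 3) to 69.9, 72.5 and 68.6 CPM in adult replicates 1, 2 and 3 (edgeR adjusted p = 3.86e-09). The adhesion molecule Pecam1 rose from 0.776 ± 0.170 to 7.16 ± 2.79 CPM (adjusted p = 0.000134) and the junction cadherin Cdh5 from 1.58 ± 0.340 to 4.23 ± 1.49 CPM (adjusted p = 0.00411), and Vwf (adjusted p = 0.0302) and Egfl7 (adjusted p = 0.0276) were also higher. Kdr, a VEGF receptor, fell from 5.55 ± 0.364 to 0.901 ± 0.413 CPM (adjusted p = 4.83e-05), and Tek was lower as well (adjusted p = 0.044).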
